A study of Saccharomyces cerevisiae with 3 samples.

Results

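The 35 genes described here encode the general factors of cytosolic translation in the budding yeast Saccharomyces cerevisiae, and they were chosen by name: 25 initiation factor genes, 8 elongation factor genes and 2 termination factor genes. Each was represented by 1 row of the arrays, among 6337 rows that stand for 6265 genes. The rule itself uses no measured value, although the list was drawn up with earlier results of these data known.

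Translation begins when eIF2, carrying GTP and the initiator tRNA, joins the small ribosomal subunit with eIF1, eIF1A, eIF3 and eIF5, while the eIF4 factors bring in the capped mRNA. The exchange factor eIF2B recharges eIF2 with GTP, and this step is the one at which starved yeast cells slow initiation and raise synthesis of the transcription factor Gcn4. In elongation eEF1A delivers aminoacyl-tRNA, eEF2 moves the ribosome along the mRNA, and fungi need a further factor, eEF3. The factors eRF1 and eRF3 end the chain at a stop codon. In growing yeast many of these factors are abundant proteins, and several are encoded by pairs of near-identical genes.

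RNA came from the haploid strain BY4742, of alpha mating type, and was measured on 3 NimbleGen arrays of 1 colour with 15 pairs of 60-base perfect-match and mismatch probes per gene. Control cells were taken straight from growth at 24 °C and atmospheric pressure (0.1 MPa), with no further incubation stated. High-pressure cells spent 5 h at 25 MPa with the temperature kept at 24 °C. Low-temperature cells spent 5 h at 15 °C under 0.1 MPa. Each array carried an equal mixture of RNA from 3 cultures, so there was 1 array per condition and no replicate, no difference between conditions could be tested, and every ratio below describes these arrays. Free text attached to the samples mentions a different strain and temperature, and the titles and design text were followed here. Of the strain's markers, the alpha-specific genes MF(ALPHA)1 and STE3 were above mismatch on all 3 arrays. The deleted genes LYS2, URA3 and LEU2 and the a-specific MFA2 were above mismatch on 0 arrays. HIS3, another marker gene of BY4742, and the a-specific STE2 were above mismatch on all 3. A gene not above mismatch could still have a high deposited log2 level. That of MFA2 was 9.06 in control cells, 9.05 at 25 MPa and 9.06 at 15 °C. In the same order STE3 had 8.98, 9.89 and 9.12, and LEU2 had 6.01, 6.92 and 7.58. LYS2 and URA3 lay below the 25th percentile of each array.

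Levels are log2 values that the submitters made with robust multiarray average (RMA), and a log2 ratio is the difference of the levels on 2 arrays. A gene was counted as higher or lower when its ratio passed 1.5-fold, which is 0.58 on the log2 scale and the size named in the design text, and when the higher of its 2 levels reached the 25th percentile of that array. A gene was taken as above mismatch when its perfect-match probes exceeded their mismatch partners at a one-sided level of 5%. Of the 35 factor genes, 33 were above mismatch on all 3 arrays, against 46.3% of all genes. The exceptions were the eIF4G genes, TIF4631 on the low-temperature array and TIF4632 on the high-pressure and low-temperature arrays. TIF4632 was also the only one of the 35 below the level limit, so counts below are over 34.

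The median log2 ratio over all genes was 0.13 under high pressure and 0.26 in the cold, and the factor genes lay below it in both comparisons. With high pressure 25 of the 35 were under that median, and in the cold 28 were. Under pressure 5 of 34 factor genes were higher and 12 lower past 1.5-fold. Over all genes 28.1% were higher and 12.2% lower, so the factor genes were less often higher (14.7%) and more often lower (35.3%) on these arrays. In the cold 5 were higher and 11 lower, against a background of 34.7% higher and 9.6% lower. The median ratio of the 35 was -0.30 under pressure and -0.46 in the cold. Both comparisons share the control array, so their likeness is no independent observation. Cells of both treated arrays also had 5 h of incubation, which is not stated for the control. In both comparisons pressure or cold therefore cannot be told apart from that incubation.

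The scale of the values decided many of these calls. Ratios were recomputed with the arrays centred on their medians, with quantile normalization of the gene values, without the trend on gene length, and from the perfect-match intensities, which with the deposited RMA values made 5 scalings. How the perfect-match intensities were normalized is not stated. Their array medians were 278, 327 and 400, so ratios of them may carry the brightness of an array. The RMA levels also had unlike medians over genes, so their ratios may carry it as well. Those medians were 6.43 for the control, 6.76 for high pressure and 6.97 for low temperature. Of the 5 genes higher under pressure, SUI1, TIF11, SUI3 and CAF20 passed 1.5-fold in all 5, and the same 4 did so in the cold. Of the 12 genes lower under pressure 3 did so, GCD1, PRT1 and TEF4, and of the 11 lower in the cold 1 did so, TEF4. With perfect-match intensities 3 genes were lower under pressure (8.82%, against 5.11% of all genes) and 1 in the cold (2.94%, against 2.28%). With the arrays centred 20 were lower under pressure (58.8%, against 24.9%) and 24 in the cold (70.6%, against 30.3%). The median of the 35 lay below that of all genes in each of the 5 scalings, at -0.05 against 0.15 under pressure and 0.10 against 0.41 in the cold with perfect-match intensities.

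**Figure D1:**
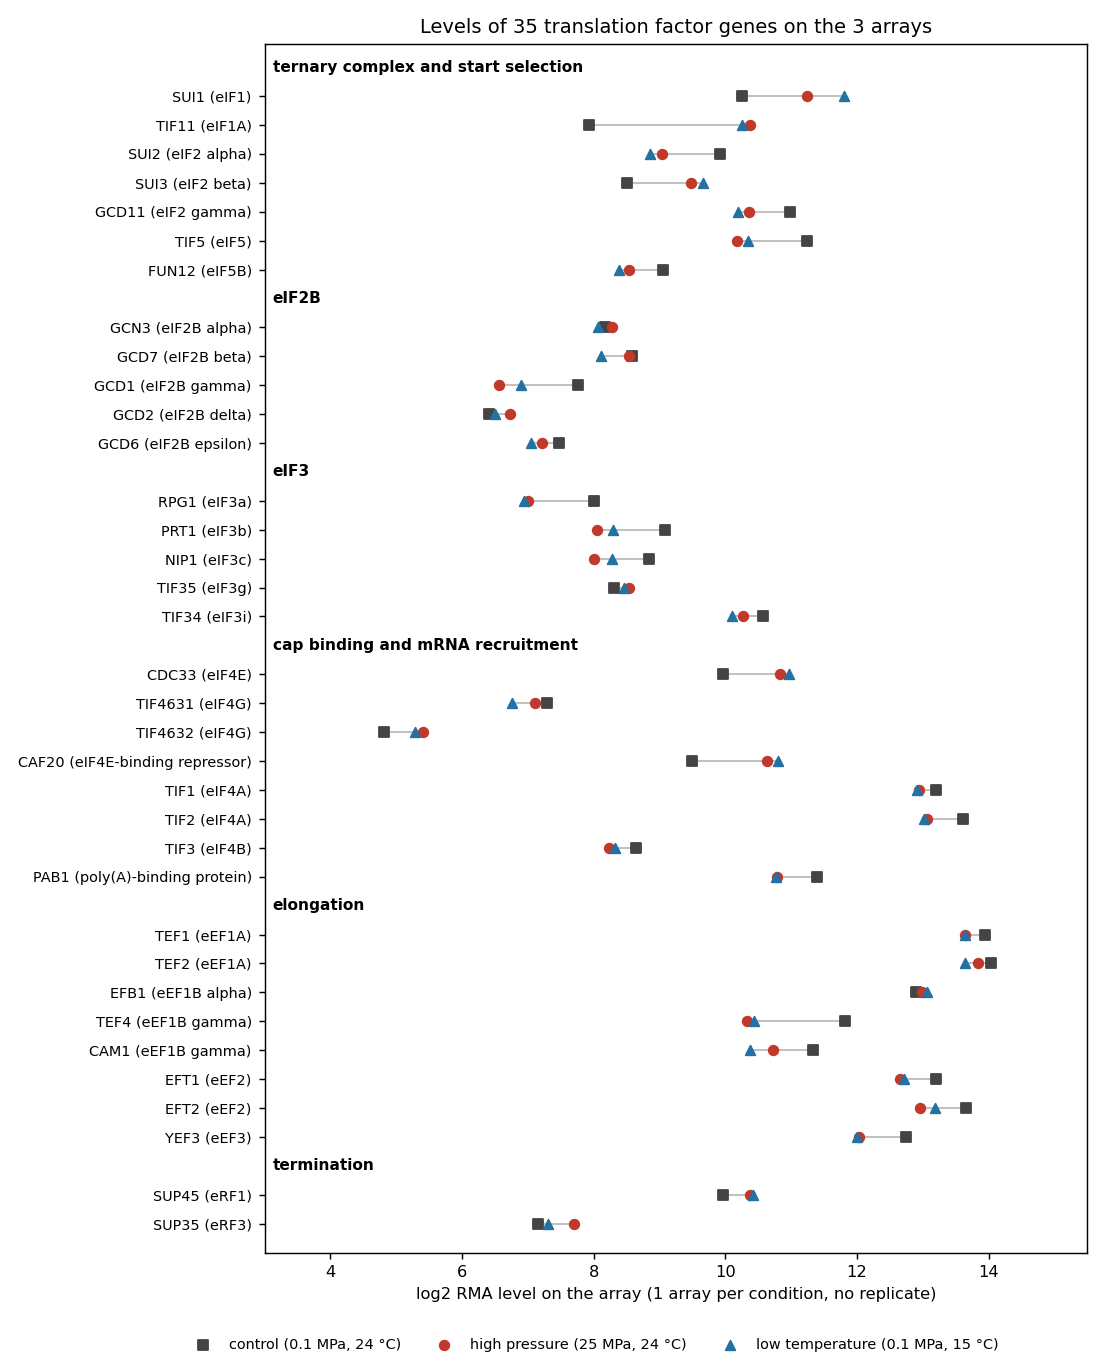
Log2 RMA level (x axis) of each factor gene on the control (square), high-pressure (circle) and low-temperature (triangle) array, with genes in rows by role and a grey line from the lowest to the highest of the 3 levels. The circle and the triangle lie on the same side of the square for most genes, to the right for TIF11, SUI1, SUI3, CDC33 and CAF20 and to the left for TEF4, TIF5 and RPG1.

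Genes for the factors that select the start codon moved in opposite directions in the RMA values. TIF11 (YMR260C, chromosome XIII), which encodes eIF1A, a small factor that binds the decoding site of the small subunit, had a level of 7.92 in the control, 10.38 under high pressure and 10.26 at low temperature, the order in which levels are given throughout. Its mean perfect-match intensity was 314, 1289 and 1429, against mismatch intensities of 127, 121 and 125. TIF11 was thus higher on both treated arrays, by 2.46 (5.50-fold) and 2.34 (5.05-fold), and 99.2% and 99.0% of all genes had a smaller ratio. Over the 5 scalings the ratio lay between 2.04 and 2.46 under pressure and between 1.79 and 2.34 in the cold.

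SUI1 (YNL244C, chromosome XIV) encodes eIF1, which keeps the scanning ribosome from stopping at wrong codons. Its levels were 10.25, 11.25 and 11.81, with perfect-match intensities of 1779, 4270 and 7507. It was higher by 0.99 (1.99-fold) under pressure and by 1.55 (2.94-fold) in the cold. The low-temperature level was the highest of the 3.

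The eIF2 subunits, which act as a complex of 1 copy each, did not move together. SUI3, for the beta subunit, had levels of 8.51, 9.48 and 9.65, with ratios of 0.97 (1.96-fold higher) under pressure and 1.15 (2.21-fold higher) in the cold. SUI2, for the alpha subunit whose phosphorylation blocks recharging, had levels of 9.91, 9.04 and 8.85, with ratios of -0.88 (1.83-fold lower) and -1.06 (2.09-fold lower). GCD11, for the GTP-binding gamma subunit, had levels of 10.99, 10.36 and 10.19, with ratios of -0.63 (1.55-fold lower) and -0.80 (1.74-fold lower). SUI3 was therefore the lone eIF2 gene above its control level in the RMA values.

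The ratio of SUI3 exceeded that of SUI2 by 1.85 on the log2 scale under pressure and by 2.21 in the cold. These genes are of close length, 858 and 915 bp, and the gap was 1.81 and 2.16 without the length trend and 1.41 and 1.56 with perfect-match intensities. SUI2 stayed inside 1.5-fold with those intensities, at -0.46 and -0.23. GCD11 was at -0.26 and 0.01 with them.

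TIF5, for eIF5, the factor that makes eIF2 hydrolyse its GTP, had levels of 11.25, 10.18 and 10.35. Its ratios were -1.07 (2.10-fold lower) under pressure and -0.90 (1.87-fold lower) in the cold, but -0.54 and -0.05 with perfect-match intensities. FUN12, for eIF5B, the GTPase of subunit joining, had levels of 9.05, 8.54 and 8.38. Its RMA ratio was inside 1.5-fold under pressure (-0.51) and past it in the cold (-0.67). Under pressure FUN12 was past it with the arrays centred (-0.85) and with quantile normalization (-0.66). In the cold FUN12 was inside it without the length trend (-0.47) and with perfect-match intensities (-0.10). Of the 7 genes of this group 3 were higher and 3 lower under pressure, against 28.1% and 12.2% of all genes, and 3 were higher and 4 lower in the cold, against 34.7% and 9.6%. With perfect-match intensities TIF11, SUI1 and SUI3 were still higher past 1.5-fold in both comparisons. SUI2, GCD11, TIF5 and FUN12 were then inside it in both.

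In the RMA values 4 of 5 eIF2B subunits stayed inside 1.5-fold in both comparisons, and GCD1 did not. GCD1, for the gamma subunit of the catalytic part, had levels of 7.76, 6.57 and 6.89. Its ratios were -1.19 (2.28-fold lower) under pressure and -0.86 (1.82-fold lower) in the cold. With perfect-match intensities they were -0.63 and -0.47, the first still past 1.5-fold.

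GCD6, for the catalytic epsilon subunit and partner of Gcd1, had levels of 7.47, 7.21 and 7.04, with ratios of -0.26 and -0.43. The regulatory subunits, which sense phosphorylated eIF2, were alpha (GCN3), beta (GCD7) and delta (GCD2). GCN3 had 8.18, 8.28 and 8.07, GCD7 had 8.57, 8.54 and 8.11, and GCD2 had 6.41, 6.73 and 6.50. Their ratios spanned -0.03 to 0.32 under pressure and -0.46 to 0.09 in the cold. With the arrays centred, GCN3 (-0.66), GCD7 (-1.01) and GCD6 (-0.97) were lower past 1.5-fold in the cold, and GCD6 (-0.60) under pressure. With quantile normalization GCD7 (-0.75) and GCD6 (-0.90) were lower past it in the cold. GCD2 stayed inside 1.5-fold in all 5 scalings in both comparisons.

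The factor eIF3 is the scaffold on which the initiation factors gather. In the RMA values the genes of its 3 large subunits were at lower levels on both treated arrays. Those of the 2 small ones were closer to the control. RPG1, for eIF3a, had levels of 8.01, 7.01 and 6.94, with ratios of -1.00 (2.00-fold lower) and -1.07 (2.10-fold lower). PRT1, for eIF3b, had 9.08, 8.05 and 8.29, with ratios of -1.03 (2.04-fold lower) and -0.79 (1.73-fold lower). NIP1, for eIF3c, had 8.85, 8.01 and 8.28, with ratios of -0.84 (1.79-fold lower) and -0.57, the second inside 1.5-fold.

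The smaller subunits stayed inside 1.5-fold in the RMA values. With the arrays centred TIF34 was lower past it, at -0.65 under pressure and -1.02 in the cold. With perfect-match intensities TIF35 was higher past it in the cold (0.79). TIF35, for eIF3g, had levels of 8.30, 8.54 and 8.46, and TIF34, for eIF3i, had 10.57, 10.26 and 10.10. The large-subunit genes measure 2292 to 2895 bp and the small-subunit genes 825 and 1044 bp. Without the length trend the 3 large ones were still lower past 1.5-fold under pressure, at -0.86, -0.93 and -0.73 for RPG1, PRT1 and NIP1. With perfect-match intensities their ratios under pressure were -0.40, -0.65 and -0.58, of which PRT1 alone passed 1.5-fold. Their cold ratios were then -0.23, -0.03 and -0.02.

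Among the genes for cap binding and mRNA recruitment, the cap-binding protein and its repressor were higher while the helicase and poly(A)-binding genes were at or below their control levels. CDC33, for eIF4E, which binds the cap, had levels of 9.97, 10.83 and 10.97. It was higher by 0.86 (1.82-fold) under pressure and by 1.00 (2.00-fold) in the cold, but inside 1.5-fold with the arrays centred, at 0.52 and 0.45. CAF20 (YOR276W), for a small protein that holds eIF4E away from eIF4G, had 9.50, 10.64 and 10.80, with ratios of 1.14 (2.21-fold higher) and 1.30 (2.47-fold higher). CAF20 passed 1.5-fold in all 5 scalings, with ratios of 0.80 to 1.15 and 0.76 to 1.74.

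The scaffold eIF4G joins the cap-binding protein, the helicase and the poly(A)-binding protein, and neither of its genes was above mismatch on all 3 arrays. TIF4631 had levels of 7.29, 7.11 and 6.77, and on the low-temperature array its perfect-match intensity of 359 lay under its mismatch intensity of 445. TIF4632 had 4.82, 5.41 and 5.29, above mismatch on the control array alone, so no fold is given for it.

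TIF1 and TIF2 encode the same helicase, eIF4A, from near-identical genes. Their probes may read both transcripts, which was not checked. TIF1 had levels of 13.20, 12.95 and 12.91, and TIF2 had 13.60, 13.06 and 13.02. Neither passed 1.5-fold in the RMA values, with TIF2 near it at -0.55 and -0.58. TIF2 was lower past it in both comparisons with the arrays centred (-0.88 and -1.13) and without the length trend (-0.60 and -0.59), and in the cold with quantile normalization (-0.61). TIF1 was lower past it in both with the arrays centred, at -0.59 and -0.84. With perfect-match intensities TIF2 was at 0.02 and 0.28 and TIF1 at 0.08 and 0.50, so the direction of the eIF4A genes depends on the scaling. TIF3, for eIF4B, the helicase partner, had 8.64, 8.23 and 8.32. PAB1, for the poly(A)-binding protein, had 11.40, 10.79 and 10.77, with ratios of -0.61 (1.53-fold lower) and -0.63 (1.55-fold lower), just past 1.5-fold, and inside it at -0.53 in both comparisons without the length trend. The ratios of the 8 genes in this group thus ran from PAB1 to CAF20.

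**Figure D2:**
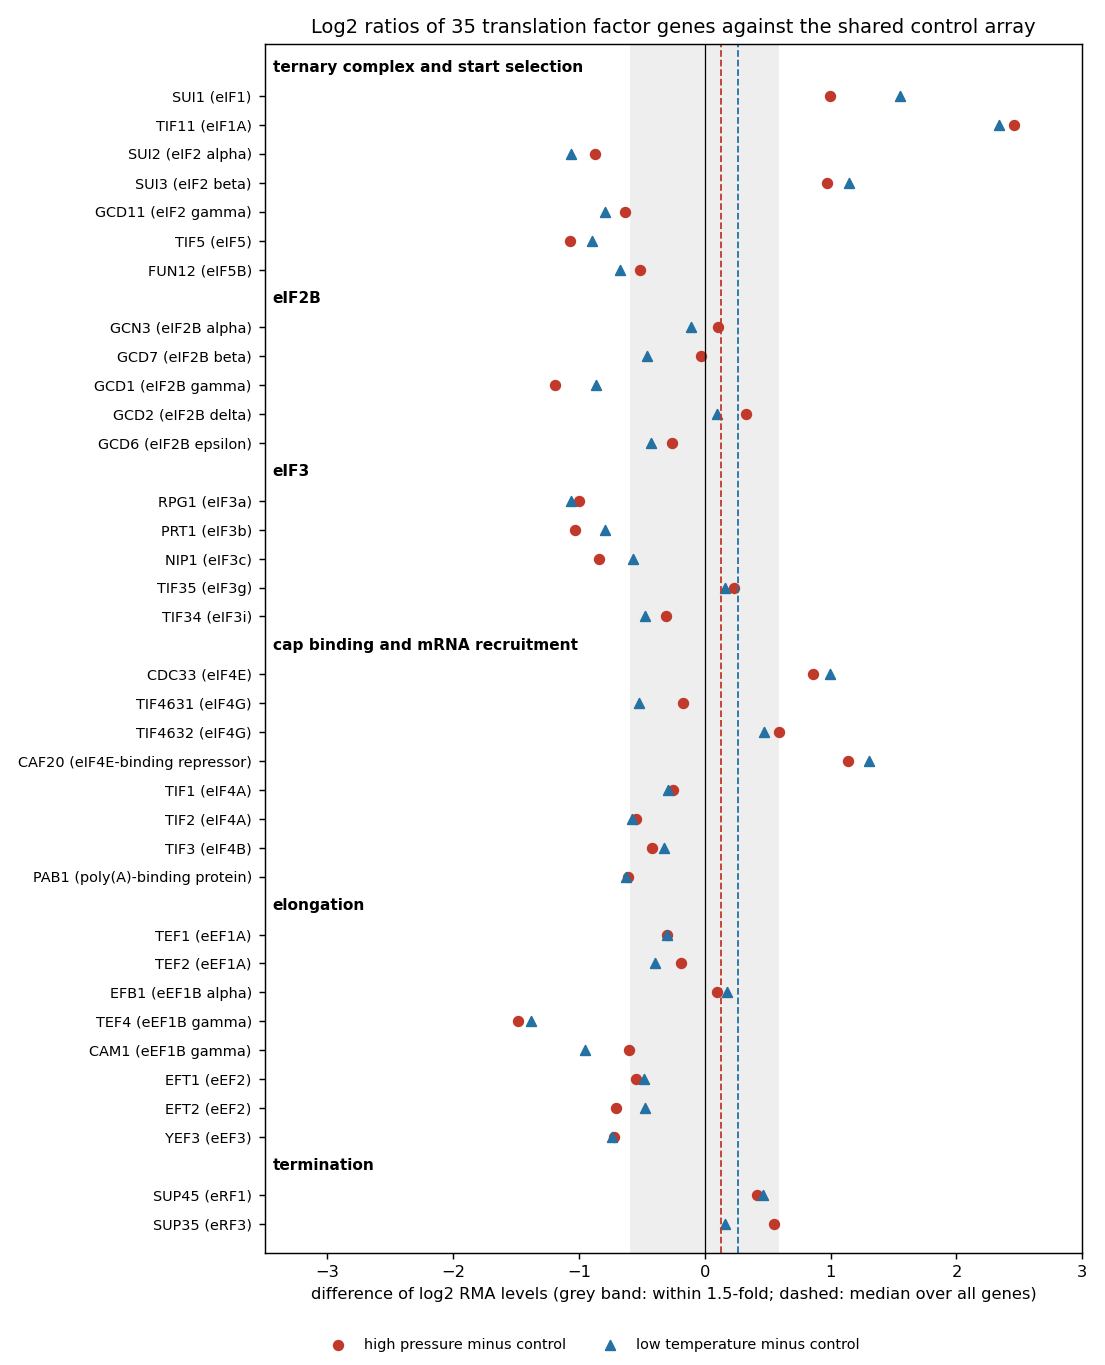
Log2 ratio (x axis) of each factor gene for high pressure (circle) and low temperature (triangle) against the shared control array, with genes in rows by role, a grey band within 1.5-fold and dashed lines at the median over all genes, 0.13 and 0.26. The 5 higher genes stand to the right of the band in both comparisons, TIF4632 at its edge was not counted, and all 8 elongation factor genes lie left of the dashed line of their comparison.

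In the RMA values all 8 elongation factor genes had ratios under the median of all genes in both comparisons. Their median was -0.58 under pressure and -0.48 in the cold. Past 1.5-fold 0 were higher and 4 lower under pressure, against 28.1% and 12.2% of all genes, and 0 were higher and 3 lower in the cold, against 34.7% and 9.6%. TEF4 (YKL081W, chromosome XI), for a gamma subunit of eEF1B, the factor that recharges eEF1A with GTP, had levels of 11.82, 10.33 and 10.43. Its perfect-match intensity was 3827, 1983 and 2433, against mismatch intensities of 198, 180 and 170. TEF4 was lower on both treated arrays, with ratios of -1.48 (2.79-fold lower) and -1.38 (2.61-fold lower), the lowest of the 35 genes in each comparison. It passed 1.5-fold in all 5 scalings, between -1.82 and -0.95 under pressure and between -1.93 and -0.65 in the cold.

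CAM1 encodes the other gamma subunit of eEF1B. It had levels of 11.32, 10.72 and 10.37, with ratios of -0.61 (1.52-fold lower) and -0.95 (1.93-fold lower), which were -0.07 and 0.02 with perfect-match intensities. The ratio of TEF4 minus that of CAM1 was -0.88 under pressure and -0.43 in the cold. EFB1, for the catalytic alpha subunit of the same complex, had levels of 12.89, 12.99 and 13.06, with ratios of 0.10 and 0.17. With perfect-match intensities EFB1 was at 0.48 and 0.90, above the medians of all genes (0.15 and 0.41). The second was past 1.5-fold. The eEF1B genes therefore differed among themselves on these arrays, as the eIF2 genes did. The annotation in the files names the small nucleolar RNA genes SNR38 with TEF4 and SNR18 with EFB1, and both RNAs are known to be made from introns of these genes.

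The pairs of copies gave close values. TEF1 and TEF2, for eEF1A, had levels of 13.94, 13.64 and 13.64 and of 14.04, 13.84 and 13.64. EFT1 and EFT2, for eEF2, had 13.20, 12.65 and 12.71 and 13.66, 12.95 and 13.18. Their proteins are identical within each pair and the coding sequences nearly so. Probes may read either transcript, which was not checked, so the copies cannot be told apart here. Ratios of copies differed by 0.11 (TEF1 lower) and 0.16 (EFT1 higher) under pressure. EFT2 was lower past 1.5-fold under pressure (-0.71) while EFT1 was not (-0.55), although the copies lay this close to each other. With perfect-match intensities both were inside 1.5-fold under pressure, EFT2 at -0.28 and EFT1 at -0.19.

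YEF3, for the fungal factor eEF3, had levels of 12.74, 12.02 and 12.00, with ratios of -0.72 (1.65-fold lower) and -0.74 (1.67-fold lower). It was inside 1.5-fold without the length trend, at -0.57 and -0.53, and with perfect-match intensities, at -0.25 and 0.12. The termination genes lay above their control levels in the RMA values without passing 1.5-fold. SUP45, for eRF1, which reads the stop codon, had levels of 9.96, 10.37 and 10.42. SUP35, for the GTPase eRF3, whose aggregated form is the yeast prion [PSI+], had 7.15, 7.70 and 7.31. With perfect-match intensities SUP45 was higher in the cold (0.84) and SUP35 under pressure (0.62), and SUP35 was at 0.64 under pressure without the length trend. With the arrays centred both lay below the control in the cold, at -0.08 and -0.39, and SUP35 did so with quantile normalization, at -0.31.

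High pressure and low temperature were then set directly against each other, a comparison without the control array. Past 1.5-fold 0 of 34 factor genes were higher and 0 lower, against 14.4% of all genes in either direction (4.28% higher and 10.1% lower). Ratios of the 35 genes, high pressure minus low temperature, ran from -0.56 for SUI1 to 0.43 for GCD7, with an SD over genes of 0.22, against 0.40 over all genes. With perfect-match intensities 3 genes were lower under pressure than in the cold, SUI1 (-0.81), PRT1 (-0.62) and CAF20 (-0.59), against 16.9% of all genes. With the arrays centred GCD7 (0.64) and SUP35 (0.60) were higher, against 8.82% of all genes, and with quantile normalization SUI1 was lower (-0.59), against 5.93%. The other 29 counted genes, TIF11, TEF4 and the eIF2 genes among them, stayed within 1.5-fold in all 5 scalings.

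Gene length moved with the ratio, among the factor genes and among all genes. Lengths, taken from RefSeq with introns included, ran from 327 bp for SUI1 to 3135 bp for YEF3. Spearman's rho between length and the log2 ratio was -0.50 under pressure and -0.50 in the cold over the 35 factor genes, and -0.29 and -0.32 over 5762 genes with a known length. These genes share the same arrays, so rho is a description. In the direct comparison of high pressure with low temperature rho was 0.09 over the factor genes and 0.05 over all genes.

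All 5 higher genes are among the 9 factor genes shorter than 1000 bp. Of those 9, 55.6% were higher under pressure and in the cold, against 44.4% and 52.4% of all counted genes of that length, so the share of higher short genes is near the background of short genes. SUI2 of the same length class was lower, and GCN3, TIF35 and EFB1 were within 1.5-fold. At 1000 bp and above, 0 factor genes were higher in either comparison. Of the 5 with 1500 to 2000 bp, GCD11, GCD1, PAB1 and TEF4 were lower under pressure and in the cold (80.0%), against 21.2% and 16.9% of counted genes of that length. At 2000 bp and above 50.0% of 10 were lower under pressure and 40.0% in the cold, against 18.4% and 17.4%. Without the length trend 5 factor genes were higher and 10 lower under pressure, against 24.9% and 13.7% of all genes. In the cold 5 were higher and 9 lower, against 31.9% and 9.97%. What part length plays in the ratios was not tested.

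**Figure D3:**
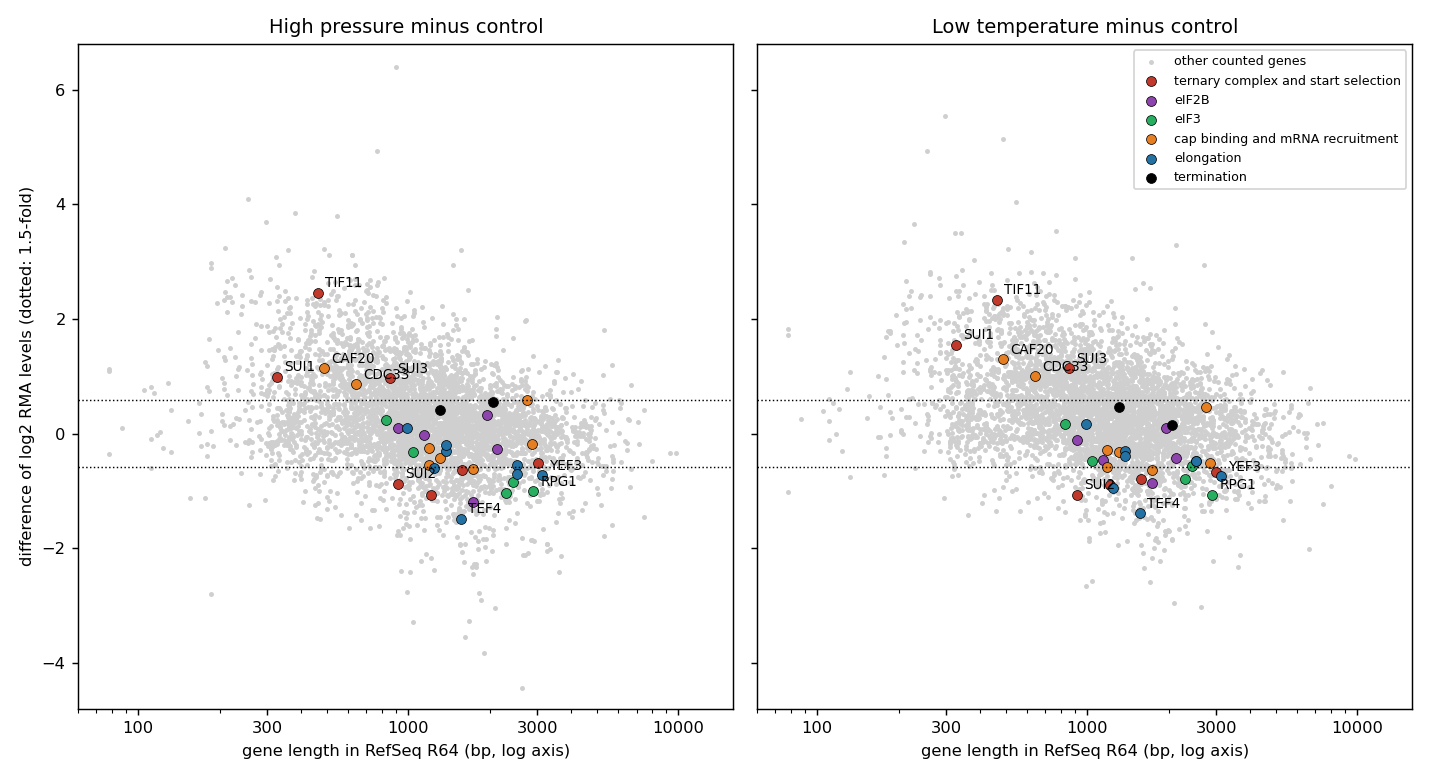
Log2 ratio against the control (y axis) by gene length in bp (x axis, log scale) for high pressure (left) and low temperature (right), with factor genes coloured by role over all other counted genes in grey and dotted lines at 1.5-fold. The 5 higher factor genes lie at 327 to 858 bp, and SUI2 at 915 bp lies below the lower line.

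Signal level also differed between the factor genes and most genes. By the mean level over the 3 arrays, 18 of the 34 counted factor genes lay at a log2 level of 10 or above. Of the 10 with a mean level from 10 to 12, 50.0% were lower in each comparison, against 21.4% and 23.9% of counted genes at that level. Of the 8 at 12 and above, 25.0% were lower under pressure and 12.5% in the cold, against 9.51% and 9.13%. The median ratio of those 8 was -0.43 under pressure, where that of all genes as bright was 0.03.

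**Figure D4:**
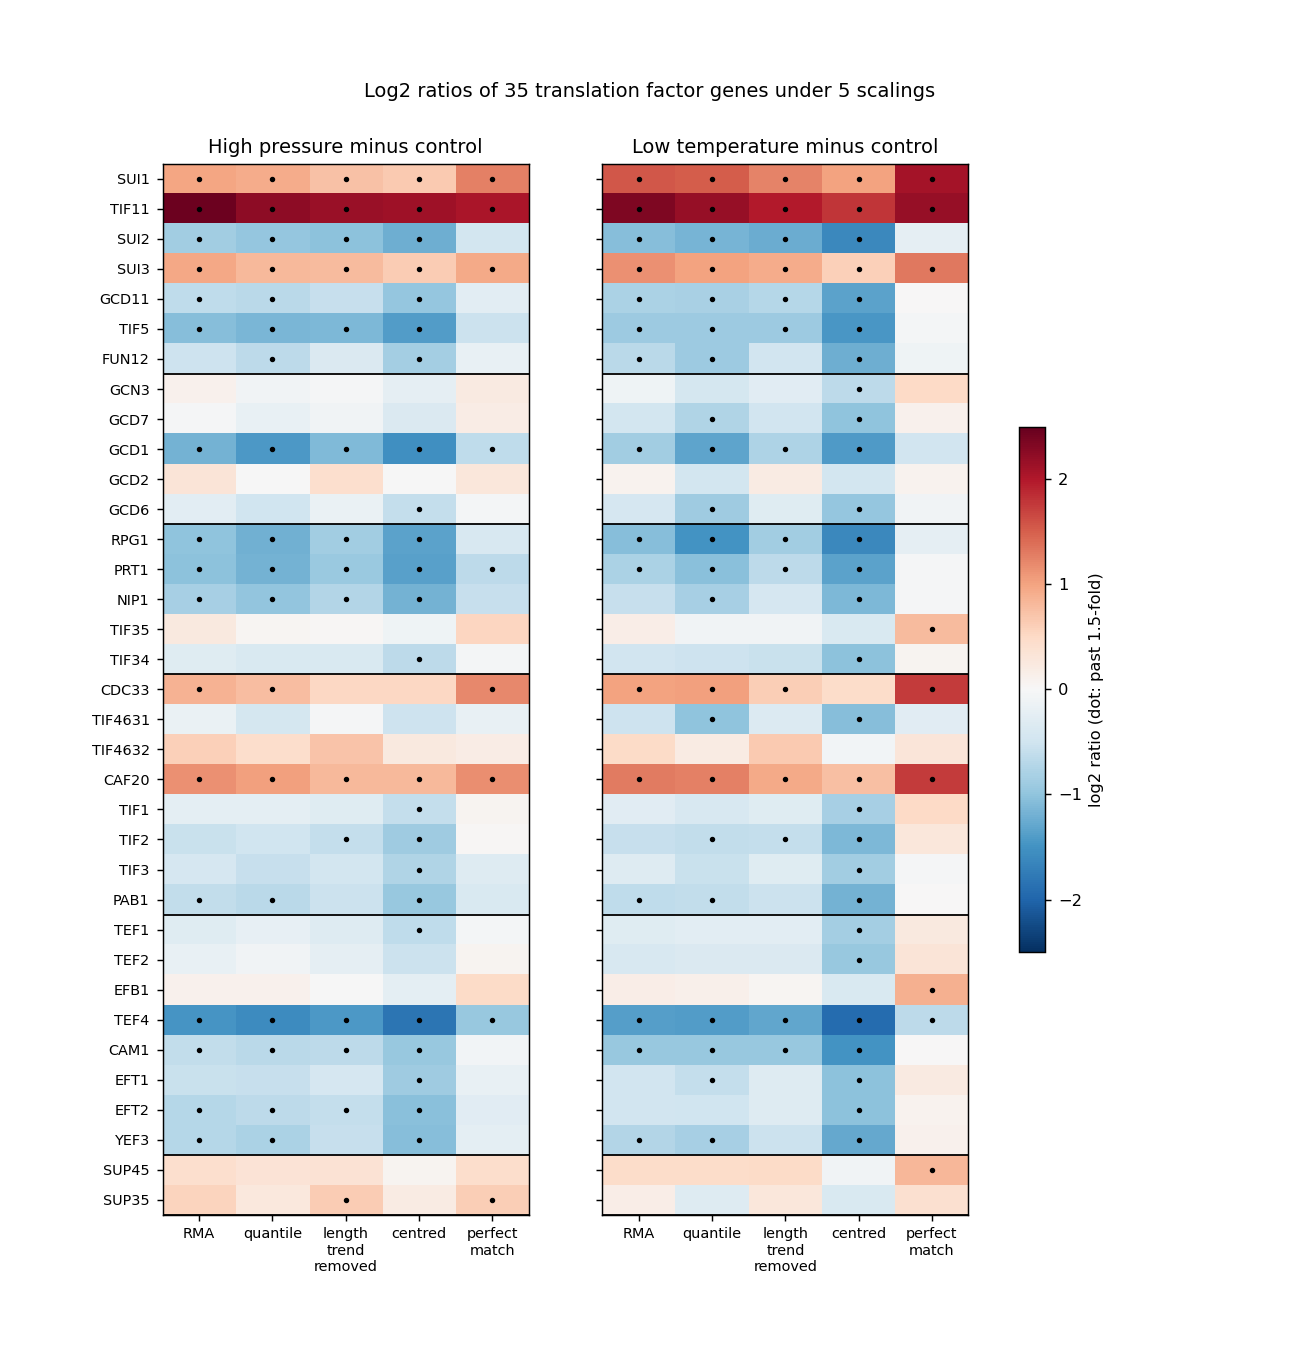
Log2 ratio against the control (colour) of the 35 factor genes (rows) under 5 scalings (columns), for high pressure (left) and low temperature (right), with a dot where a counted gene passed 1.5-fold. Rows of SUI1, TIF11, SUI3 and CAF20 are dotted and red throughout and TEF4 is dotted and blue throughout, whereas the perfect-match column holds few blue dots.

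Other genes of translation were read from a list of 32, of which 31 had a row. Under pressure 0 of 28 counted were higher and 8 lower, against 28.1% and 12.2% of all genes, and in the cold 1 of 27 was higher and 9 lower, against 34.7% and 9.6%. DPH2, of the pathway that makes diphthamide, the modified residue of eEF2, had levels of 9.29, 7.05 and 7.22, with ratios of -2.24 (4.73-fold lower) and -2.08 (4.22-fold lower). LIA1, the hydroxylase that completes hypusine on eIF5A, had 9.71, 8.14 and 8.55, with ratios of -1.57 (2.97-fold lower) and -1.16 (2.23-fold lower). RLI1, the ABC protein that splits ribosomes after termination, had 10.64, 8.94 and 9.08, with ratios of -1.70 (3.24-fold lower) and -1.56 (2.94-fold lower). These 3 had the lowest ratios of the list in both comparisons, and DPH2 and RLI1 were past 1.5-fold with perfect-match intensities too, at -1.60 and -1.36 for DPH2 and -1.32 and -0.96 for RLI1. LIA1 was at -0.77 and -0.22 with them.

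At the upper end of the list, STM1, a ribosome-bound protein of resting cells, had levels of 11.14, 11.70 and 11.95. It was inside 1.5-fold under pressure (0.55) and higher by 0.80 (1.74-fold) in the cold. GCN20, an activator of the eIF2 kinase, had 7.07, 7.65 and 7.19, and HBS1, which frees stalled ribosomes, had 6.91, 7.38 and 7.18. In the RMA values neither passed 1.5-fold, nor did HEF3, a related copy of the eEF3 gene, or MRF1, a mitochondrial release factor gene. GCN20 lay just under the limit under pressure (1.499-fold higher) and past it without the length trend (0.68). In the cold HEF3 was higher past it without the length trend (0.67), and MRF1 with perfect-match intensities (0.73). HEF3 and MRF1 were above mismatch on 0 arrays. HYP2 and ANB1, the aerobic and hypoxic genes of eIF5A, are near-identical. Their probes may read both, which was not checked. HYP2 had 13.64, 13.19 and 13.25 and ANB1 had 12.39, 12.44 and 12.30, all within 1.5-fold in the RMA values. With perfect-match intensities ANB1 was higher past it, at 0.84 under pressure and 0.69 in the cold. With the arrays centred HYP2 was lower past it in both (-0.78 and -0.94) and ANB1 in the cold (-0.63). HYP2 was also lower past it without the length trend, at -0.77 and -0.74.

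The messenger of Gcn4, whose own translation reports on eIF2B, lay at 12.18, 12.56 and 11.93 and was within 1.5-fold of the control on both treated arrays in the RMA values. With perfect-match intensities its ratios were 0.74 and 0.63, and with the arrays centred 0.05 and -0.79. In the direct comparison GCN4 was higher under pressure than in the cold by 0.63 (1.55-fold), but by 0.11 with perfect-match intensities, and GCD10, of the enzyme that methylates the initiator tRNA, lay at 5.84 under pressure and 6.54 in the cold, above mismatch on neither array. GCN4 and GCD10 were named after their values were seen, as the 2 genes of that list past 1.5-fold there.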

How the data were processed

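RNA pooled from 3 cultures per condition was measured on 3 arrays, 1 each for control, high pressure and low temperature, so no test between conditions was possible and the number of arrays limits the precision. The deposited log2 levels were made by the authors with RMA and quantile normalization, per the labels, with no RMA version stated. The deposited per-array tables give, per the file headers, the mean perfect-match, mismatch and difference intensity over 15 probe pairs. They also give, per the file headers, each mean's coefficient of variation, a ratio of SD to mean. RMA is meant to draw arrays together, so a shift of most genes can be hidden or created. The deposited levels still differed in their medians over genes (6.43, 6.76 and 6.97 for control, high pressure and low temperature).

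Rows were matched to RefSeq R64 names (1723 by locus tag, 3953 by symbol, 152 by synonym, 509 unmatched), and the rows of 70 genes with several were averaged, leaving 6265 genes. RefSeq gave names and lengths (known for 92.0% of genes) and no coordinates, as no genome build is named for the probes. The limit for above mismatch was t = 1.76 with 14 degrees of freedom. The length trend was a lowess fit (fraction 0.3) of ratio on log2 length, its median kept. The code for ratios and calls was run on simulated arrays with shifts well past 1.5-fold and little noise. That run checks the code and cannot show how reliable calls near 1.5-fold are on single arrays. All 35 members were named; of the 32 other genes, the 3 highest and 3 lowest counted ratios against the control, with ANB1, HYP2 and HEF3. Members and lists were chosen with earlier results of these data known. Calculations used Python 3.11.15, pandas 2.3.3, scipy 1.17.1 and statsmodels 0.14.6.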

Additional observations from a re-analysis of the deposited data

How the results depend on the processing

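Counts of factor genes past 1.5-fold were recomputed under 7 alternatives planned for each of the 3 comparisons. Under pressure the count of lower genes (12) became 3 with perfect-match intensities, 20 with the arrays centred and 5 with a 2-fold limit (5.12% of all genes), and the count of higher genes (5) became 2 with a 2-fold limit (14.9% of all genes). In the cold the count of lower genes (11) became 1 with perfect-match intensities, 24 with the arrays centred, 17 with quantile normalization (50.0%, against 19.6% of all genes) and 3 with a 2-fold limit (3.76% of all genes). That of higher genes (5) became 8 with perfect-match intensities (23.5%, against 45.9% of all genes). In the direct comparison the counts of 0 became 3 lower with perfect-match intensities, 2 higher with the arrays centred and 1 lower with quantile normalization. The other counts moved by less than 1.5 times, those without a level filter and those above mismatch on both arrays among them. Called cold ratios that changed sign, all with perfect-match intensities, were those of GCD11 (0.011), PAB1 (0.014), CAM1 (0.019) and YEF3 (0.12). The cause of these shifts was not tested. No paired analysis was possible because each condition has 1 array. Signal over mismatch limits both eIF4G genes, TIF4631 on the low-temperature array and TIF4632 on both treated arrays.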
